A study of Populus deltoides with 38 samples.

Results

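Phenylalanine ammonia-lyase (PAL) removes ammonia from phenylalanine to give cinnamic acid, and so opens the phenylpropanoid pathway. The pathway leads to the monolignols of lignin in the walls of water-conducting cells, and to flavonoids, tannins and phenolic glycosides, which are abundant in poplar leaves. PAL is encoded by a small gene family in poplars, and its transcripts are known to respond to wounding, pathogens, nutrient supply and metals. The loci described here are the 5 poplar PAL genes, found by their identifiers in the locus names of the mRNA tables. All 5 identifiers were found, at 5 of the 39572 loci listed, and all 5 loci passed the filter on low values, which 23166 loci passed. None of the 5 loci joined a second identifier, whereas 749 loci of the table joined more than 1.

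The leaves came from Populus deltoides plants, labelled as strain monilifera, that were raised from rooted stem cuttings for 8 weeks and then grown in hydroponics with a modified Hoagland solution. From then on 72 selected plants received 0 µM (low, L), 100 µM (middle, M) or 1500 µM (high, H) sulfate for 12 days, and afterwards no cadmium (−Cd) or 50 µM CdCl2 (+Cd) with the same sulfate for 21 days. Each of the 6 groups, −CdL, −CdM, −CdH, +CdL, +CdM and +CdH, had 3 mRNA libraries and library names end in the replicate number. How the plants were divided among libraries is not in the labels, so p-values speak of the spread among these libraries, and that spread may be technical.

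Levels are given in FPKM, which scales reads by transcript length and library size, so that loci can be set side by side. The read depth behind the values is unknown, and the summed FPKM of a library ran from 738655 to 976794. The sums of −CdM1 to −CdM3, at 858094, 976794 and 894933, were above that of every other library, the next being 845672 in +CdH3. Libraries of a group correlated at 0.955 to 0.978 across loci, which are not independent replicates. Library −CdH1 stood apart from its group on the second principal component of all loci tested, at 21.6 against −4.42 and −11.04 for −CdH2 and −CdH3. The +CdL libraries also spread on it, at 45.5, 26.5 and 19.6 for +CdL1 to +CdL3, and +CdL1 with +CdL2 had the lowest correlation, 0.955. Library +CdM1 was at −42.0 against −24.6 and −17.7 for +CdM2 and +CdM3. The label of the tissue could not be checked against leaf markers, because the files pair the identifiers with no gene names.

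Potri.006G126800 was the main PAL transcript of these leaves. It lies on chromosome 6 from 10249100 to 10252655, in the coordinates of the files, whose genome build is not given in the sources used here. Its mean over the 18 libraries was 616 FPKM, rank 130 among the loci tested, and it made up 55.2% to 77.9% of the summed PAL FPKM of a library. Potri.016G091100, on chromosome 16 from 7482819 to 7486204, and Potri.008G038200, on chromosome 8 from 2123927 to 2128275, followed with means of 132 and 131 FPKM. Potri.010G224100, on chromosome 10 from 20815418 to 20819184, had a mean of 36.0 FPKM, and its neighbour Potri.010G224200, from 20822275 to 20825759, had 8.20 FPKM. These last loci lie 3090 bases apart with 0 other listed loci between them.

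The order of the levels was the same in every library except for the places of Potri.016G091100 and Potri.008G038200. Potri.006G126800 was above Potri.016G091100 in 18 of 18 libraries, by a ratio of 2.64 to 7.15. Potri.016G091100 was above Potri.008G038200 in 9 of 18 libraries, and their values overlapped within 5 of the 6 groups, so these neighbours in the order did not differ beyond their spread there. In −CdM the 3 values of Potri.016G091100, from 153 to 204 FPKM, were all above those of Potri.008G038200, from 121 to 133 FPKM. Potri.008G038200 was above Potri.010G224100 in 18 of 18 libraries, by a ratio of 1.97 to 5.11, and Potri.010G224100 was above Potri.010G224200 in 18 of 18, by 3.86 to 4.83. Paralogs and near-identical copies can share reads, and how the authors assigned such reads is not given in the sources used here, so the split between related PAL loci is uncertain.

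**Figure D1:**
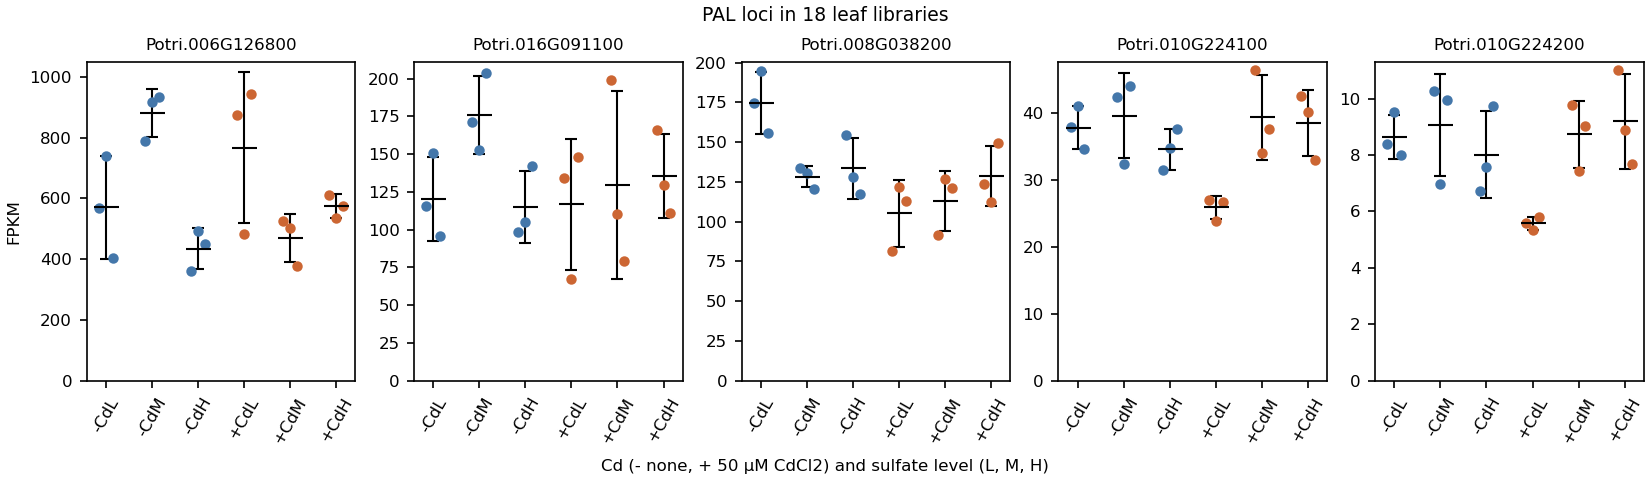
FPKM of each PAL locus (y axis, from 0, a separate scale per panel) in the 3 libraries of each of the 6 groups (x axis; blue without Cd, orange with Cd), with the group mean and SD. Potri.006G126800 was highest without Cd at middle sulfate, and Potri.010G224100 and Potri.010G224200 were lowest with Cd at low sulfate.

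The summed PAL level consisted mostly of Potri.006G126800, so the sum moves with that locus by construction. The sum was highest without Cd at middle sulfate, at 1233 ± 83.4 FPKM (SD, n = 3), and lowest without Cd at high sulfate, at 726 ± 65.3 FPKM. In the other groups it was 1020 ± 282 FPKM in +CdL, 760 ± 125 in +CdM, 886 ± 65.5 in +CdH and 912 ± 220 in −CdL. The share of Potri.006G126800 in the sum was 71.3% ± 2.6 in −CdM and 74.3% ± 4.82 in +CdL, and its mean was 59.6% to 64.8% in the other 4 groups. The share of Potri.008G038200 was 19.6% ± 2.63 in −CdL and 11.2% ± 5.39 in +CdL. These sums and shares are a description, with no test.

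**Figure D2:**
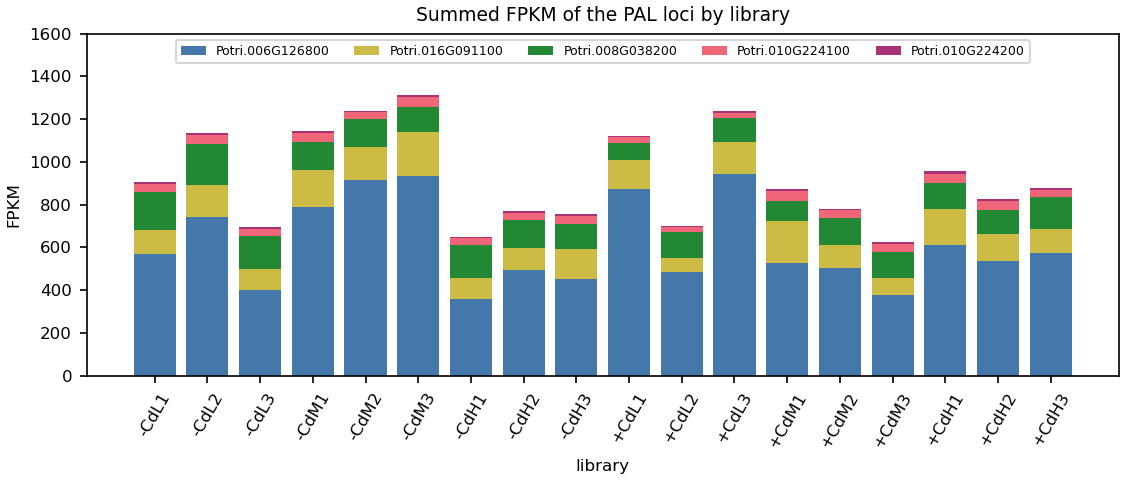
Summed FPKM of the 5 PAL loci (y axis) in each of the 18 libraries (x axis), each bar divided by locus. The sums ran from 626 FPKM in +CdM3 to 1313 FPKM in −CdM3, and Potri.006G126800 was the largest part of every bar.

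The effect of Cd was compared within each sulfate level, which asks how leaves with different sulfur supply responded to the metal. Potri.006G126800 fell with Cd at middle sulfate to 0.529 of its level. Without Cd it stood at 789, 916 and 934 FPKM in −CdM1 to −CdM3, and with Cd at 526, 502 and 378 FPKM in +CdM1 to +CdM3. Every library with Cd was below every library without Cd. The log2 difference was −0.92 ± 0.25 (SE; limma on log2(FPKM + 1), adjusted p = 0.0156, with Benjamini-Hochberg adjustment over all loci tested). At this sulfate level 1 of the 5 PAL loci was called at an adjusted p under 0.05, against 20.8% of all loci tested. The call ended without −CdM3 (−0.87; limma, adjusted p = 0.056), without +CdM3 (−0.77; adjusted p = 0.0718) and under quantile normalization (−0.70; adjusted p = 0.0521).

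At low and high sulfate the same locus was on average higher with Cd, but not past the threshold. At low sulfate it stood at 568, 740 and 402 FPKM in −CdL1 to −CdL3 and at 874, 482 and 943 FPKM in +CdL1 to +CdL3, so the groups overlapped. The log2 difference there was 0.41 ± 0.25 (SE; limma, adjusted p = 0.508), with a 95% interval from −0.11 to 0.94, and leaving out 1 library at a time moved it between 0.18 without −CdL3 and 0.71 without +CdL2. At high sulfate it stood at 359, 494 and 450 FPKM in −CdH1 to −CdH3 and at 612, 535 and 576 FPKM in +CdH1 to +CdH3. These groups did not overlap, and the log2 difference of 0.41 ± 0.25 (SE; limma, adjusted p = 0.288) was not called. Without −CdH1 it was 0.28 (limma, adjusted p = 0.584). Of the 5 PAL loci 0 were called at low sulfate, where 0.717% of all loci were, and 0 at high sulfate, where 13.4% were (limma). Of the 23166 loci tested, 3080 at low and 6632 at high sulfate had an unadjusted p under 0.05. At that unadjusted level 3 of the 5 PAL loci passed at low sulfate, Potri.008G038200, Potri.010G224100 and Potri.010G224200, and none at high sulfate. Potri.010G224100 and Potri.010G224200 are neighbours that may share reads, so they may be a single signal.

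The difference between these Cd responses was itself tested. For Potri.006G126800 the Cd effect at low sulfate lay 1.33 ± 0.35 above that at middle sulfate on the log2 scale (SE; limma, adjusted p = 0.0343), and 1 of 5 PAL loci was called in this interaction, against 6.28% of all loci. The F test over the 3 sulfate levels also passed (limma, adjusted p = 0.0473), again for 1 of 5 PAL loci, against 4.26% of all loci. The Cd effect at high sulfate lay 1.33 ± 0.35 above that at middle sulfate as well, with nearly the same unadjusted p (0.00165 by limma, against 0.00166), but its adjusted p was 0.421. In that contrast 0 of all loci (0%) were called, and 1910 loci had an unadjusted p under 0.05. The low minus high difference in the Cd effect was −0.00 with a 95% interval from −0.74 to 0.74, and 0 of 5 PAL loci were called there, against 1.81% of all loci, with 3858 loci at an unadjusted p under 0.05 (limma). The low minus middle call ended when −CdL1, −CdL3, −CdM2, −CdM3, +CdL1, +CdL3, +CdM2 or +CdM3 was left out (1.10 to 1.39; limma, adjusted p of 0.0521 to 0.0855), under quantile normalization (1.00; adjusted p = 0.0951) and when only the groups compared were fitted (adjusted p = 0.0719). The F test missed the threshold without any one of 16 libraries, all but −CdL2 and +CdL2 (limma, adjusted p up to 0.121), with the low minus middle value between 1.10 and 1.42 in these fits, and it also missed it under quantile normalization (adjusted p = 0.0982) and with no filter on low values (adjusted p = 0.0642). Both the low minus middle call and the F test call also ended when the replicate number was added to the fit.

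**Figure D3:**
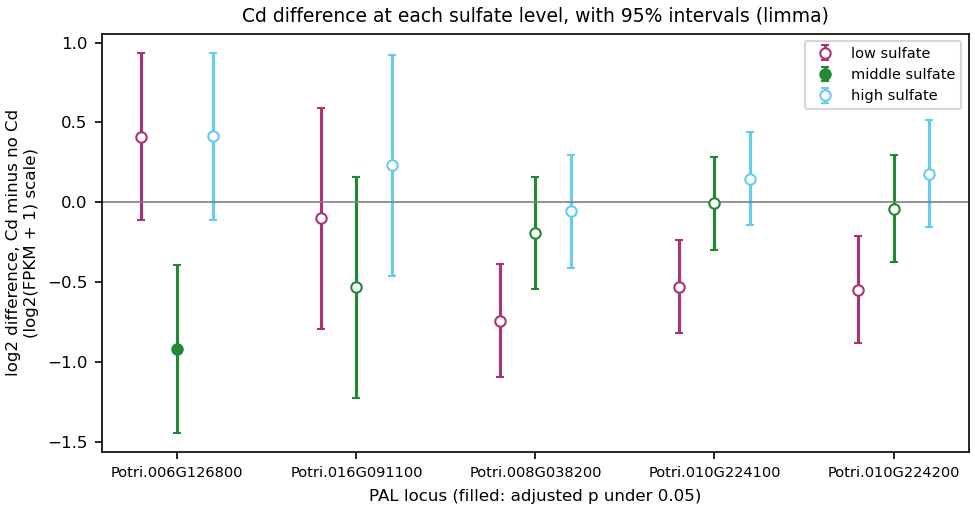
Log2 difference between the groups with and without Cd (y axis, log2(FPKM + 1) scale) of each PAL locus (x axis) at low, middle and high sulfate, with 95% intervals from limma; filled points had an adjusted p under 0.05. The filled point is Potri.006G126800 at middle sulfate, at −0.92.

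Potri.008G038200 fell with Cd when the 3 sulfate levels were averaged. At low sulfate it stood at 174, 195 and 156 FPKM in −CdL1 to −CdL3 and at 81.4, 122 and 113 FPKM in +CdL1 to +CdL3, and the groups did not overlap. At middle sulfate the values were 133, 130 and 121 FPKM without Cd and 91.6, 127 and 121 FPKM with Cd, and at high sulfate 155, 128 and 118 FPKM without Cd and 124, 112 and 149 FPKM with Cd, and at both levels the groups overlapped. Averaged over sulfate, the log2 difference was −0.33 ± 0.10 (SE; limma, adjusted p = 0.0187), and 8 of 9 libraries with Cd were below the mean without Cd at their own sulfate level. In this contrast 1 of 5 PAL loci was called, against 28.1% of all loci. The call held with any single library left out, −CdH1 included (−0.29; limma, adjusted p = 0.038), and ended under quantile normalization (−0.23; adjusted p = 0.0719). The difference was −0.74 ± 0.17 at low sulfate (limma, adjusted p = 0.0579), −0.19 at middle and −0.06 at high sulfate, where it was 0.06 without −CdH1 or 0.03 under quantile normalization. The low sulfate value was past the threshold without +CdM1 (limma, adjusted p = 0.0368) or +CdH3 (adjusted p = 0.0436), libraries outside that contrast that share its estimate of spread. The F test of the interaction missed the threshold for this locus (limma, adjusted p = 0.177).

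The neighbouring loci Potri.010G224100 and Potri.010G224200 were lower in the low sulfate leaves with Cd than at higher sulfate with Cd. Potri.010G224100 stood at 27.0, 23.8 and 26.8 FPKM in +CdL1 to +CdL3, at 46.4, 34.1 and 37.6 FPKM in +CdM1 to +CdM3, and at 42.5, 40.1 and 33.0 FPKM in +CdH1 to +CdH3. Potri.010G224200 stood at 5.60, 5.34 and 5.80 FPKM in +CdL, at 9.76, 7.44 and 9.01 FPKM in +CdM and at 11.005, 8.90 and 7.67 FPKM in +CdH. For both loci the +CdL libraries were the lowest 3 of the 18, and no group without Cd reached as low, the lowest values there being 31.4 and 6.74 FPKM in −CdH1.

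Against middle sulfate with Cd, Potri.010G224100 was lower by −0.58 ± 0.14 on the log2 scale (SE; limma, adjusted p = 0.0101) and Potri.010G224200 by −0.56 ± 0.16 (adjusted p = 0.0239). Against high sulfate with Cd the differences were −0.55 ± 0.14 (limma, adjusted p = 0.0113) and −0.62 ± 0.16 (adjusted p = 0.0127). These were 2 of 5 PAL loci in each contrast, against 17.7% and 20.3% of all loci, and both contrasts share the +CdL libraries. The 2 are the neighbours, which correlated at r = 0.96 over the libraries and may share reads. They may therefore be a single signal, and a count over 5 loci cannot show whether their rate differs from that of all loci. For Potri.010G224100 the call against middle sulfate ended without +CdM1 (−0.46; limma, adjusted p = 0.0524). For Potri.010G224200 the call against middle sulfate ended without +CdL1 (−0.56; limma, adjusted p = 0.065), +CdL2 (−0.53; 0.0564), +CdM1 (−0.48; 0.0949) or +CdM3 (−0.53; 0.0645), and the call against high sulfate ended without +CdH1 (−0.49; 0.0605). Within low sulfate the Cd difference was −0.53 ± 0.14 for Potri.010G224100 (limma, adjusted p = 0.0997) and −0.55 ± 0.16 for Potri.010G224200 (adjusted p = 0.138). The groups there did not overlap for either locus. For the other 3 PAL loci the differences at low sulfate with Cd were not called (limma). Potri.006G126800 was higher by 0.66 ± 0.25 than at middle sulfate (adjusted p = 0.0746), and past the threshold without +CdL2 (0.97; adjusted p = 0.00957).

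Without Cd, sulfate supply gave no call for any PAL locus. In the comparison of low with middle sulfate 0 of 5 were called, against 14.5% of all loci (6573 loci at an unadjusted p under 0.05), and in low against high sulfate 0 of 5, against 3.58% (4399 loci; limma). Potri.006G126800 was at 570 ± 169 FPKM in −CdL, 880 ± 79.3 in −CdM and 434 ± 68.5 in −CdH (SD, n = 3), and every −CdM library was above every other library without Cd. Its difference from middle sulfate was −0.66 ± 0.25 at low (limma, adjusted p = 0.0854) and −1.025 ± 0.25 at high sulfate (adjusted p = 0.0825, unadjusted p = 0.000821). Without −CdH1 the latter was −0.89 (limma, adjusted p = 0.324). The low sulfate difference was past the threshold without −CdL2 (−0.87; limma, adjusted p = 0.0488) or +CdL2 (−0.66; adjusted p = 0.0342). Of all loci 0.082% were called between high and middle sulfate without Cd, and 0 (0%) with Cd, with 3568 and 1925 loci at an unadjusted p under 0.05 (limma), and 0 of 5 PAL loci in either. Potri.008G038200 was at 175 ± 19.5 FPKM in −CdL, above 128 ± 6.61 in −CdM and 133 ± 19.1 in −CdH, with no overlap in either comparison (limma, adjusted p = 0.0911 and 0.214). Under quantile normalization its low against middle difference passed (0.67; limma, adjusted p = 0.0104).

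Potri.016G091100 was the one PAL locus with no call in any contrast. Its group means ran from 115 ± 23.8 FPKM in −CdH to 176 ± 26.1 FPKM in −CdM. At middle sulfate it stood at 172, 153 and 204 FPKM without Cd and at 199, 111 and 79.5 FPKM with Cd, and the log2 difference of −0.53 ± 0.32 (SE; limma, adjusted p = 0.269) had a 95% interval from −1.22 to 0.16. It was −0.89 without +CdM1 (limma, adjusted p = 0.058) and −0.23 without +CdM3 (adjusted p = 0.686). Its libraries also varied most within groups among the PAL loci, with a residual SD of 0.435 on the log2 scale. The residual SD was 0.322 for Potri.006G126800, 0.212 for Potri.008G038200, 0.200 for Potri.010G224200 and 0.174 for Potri.010G224100, against a median of 0.180 over all loci tested. Only 7.3% of the loci tested had a larger residual SD than Potri.016G091100, and 16.3% had a larger one than Potri.006G126800.

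Replicates that were high for one of these variable loci tended to be high for the other. Over the 18 libraries Potri.006G126800 and Potri.016G091100 had a Pearson r of 0.666 (permutation test, two-sided, p = 0.0027, adjusted p = 0.0091 over 20 relations) and a Spearman rho of 0.736 (permutation p = 0.0008, adjusted p = 0.004). The r was 0.604 without +CdL3 and −CdM3, the libraries farthest from the median, and 0.784 for deviations from the group means. The pair Potri.010G224100 and Potri.010G224200 had r = 0.96 (permutation p = 1e-05, the smallest that 100000 permutations can give, adjusted p = 0.0001) and rho = 0.942 (permutation p = 1e-05, adjusted p = 0.0002), with r = 0.939 without +CdL2 and +CdL3. The ratio of these neighbours was 3.86 to 4.83 in all 18 libraries. Potri.008G038200 was not related past the threshold to any other PAL locus, with r from −0.238 to 0.193 (permutation adjusted p of 0.59 to 0.72) and rho from −0.245 to 0.0217 (adjusted p of 0.59 to 0.97). Its r for deviations from the group means was −0.225 with Potri.006G126800, −0.529 with Potri.016G091100, −0.548 with Potri.010G224100 and −0.387 with Potri.010G224200. Potri.016G091100 was also related to Potri.010G224100, with r = 0.595 (permutation p = 0.0091, adjusted p = 0.023) and rho = 0.595 (permutation p = 0.01, adjusted p = 0.027), and r was 0.537 without +CdL2 and +CdM3. With Potri.010G224200 it had r = 0.524 (permutation p = 0.026, adjusted p = 0.058) and rho = 0.585 (permutation p = 0.012, adjusted p = 0.027). The permutations shuffled all 18 libraries without regard to group, so differences between groups feed these p-values. The libraries share the group structure and the scaling of FPKM, and the labels name no batch.

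The next steps of the monolignol pathway were read from 17 identifiers, taken from general knowledge of the poplar pathway because the files attach no names to them. The list was chosen with earlier results of these data known, so its counts beside those of all loci are a description. All 17 were tested. With Cd, 6 of the 17 were lower at low than at middle sulfate and 8 were lower at low than at high sulfate, and 0 were higher in either (limma), against 17.7% and 20.3% of all loci called in either direction. The median log2 differences were −0.40 and −0.45, beside 0.00 and 0.02 over all loci tested. Potri.003G059200 was among them in both contrasts, at −0.67 ± 0.16 against middle sulfate (SE; limma, adjusted p = 0.0096) and −0.89 ± 0.16 against high sulfate (adjusted p = 0.0015). The 8 became 4 without +CdL1 or +CdH1, and 3 when only the groups compared were fitted. Over the fits without 1 library the 6 ranged from 4 to 8 and the 8 from 4 to 11. Without Cd 0 of the 17 were called in any sulfate comparison, although under quantile normalization 3 were higher at low than at middle sulfate and 1 higher at low than at high sulfate, and 1 was higher in these comparisons in some fits without a library or with a higher filter.

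Of these 17 loci, 3 rose with Cd at middle sulfate and 2 at high sulfate, and 1 fell at low sulfate (limma). All loci were called at 20.8%, 13.4% and 0.717% in these contrasts, so the counts at middle and high sulfate were near the share over all loci. The 3 became 0 without −CdM1 or −CdM2, 1 without +CdM3 and 5 under quantile normalization. The 1 at low sulfate became 0 without −CdL1, −CdL2, −CdL3, −CdM1, −CdH2, +CdL1, +CdL3, +CdM2 or +CdM3, and 2 without +CdM1. Averaged over sulfate, 2 were higher and 3 lower, against 28.1% of all loci called, with 5 and 3 under quantile normalization. Potri.008G136600 rose by 0.47 ± 0.11 averaged over sulfate (SE; limma, adjusted p = 0.00536), in 8 of 9 libraries. Its level at middle sulfate was 11.6 ± 1.17 FPKM without and 19.5 ± 3.34 FPKM with Cd (SD, n = 3). Potri.003G059200 rose by 0.34 ± 0.09 (limma, adjusted p = 0.0129), in 7 of 9 libraries. Potri.007G016400 had a log2 difference of −0.48 ± 0.10 (limma, adjusted p = 0.00251) and Potri.001G042900 one of −0.35 ± 0.10 (adjusted p = 0.0159), lower with Cd, each in 9 of 9 libraries.

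**Figure D4:**
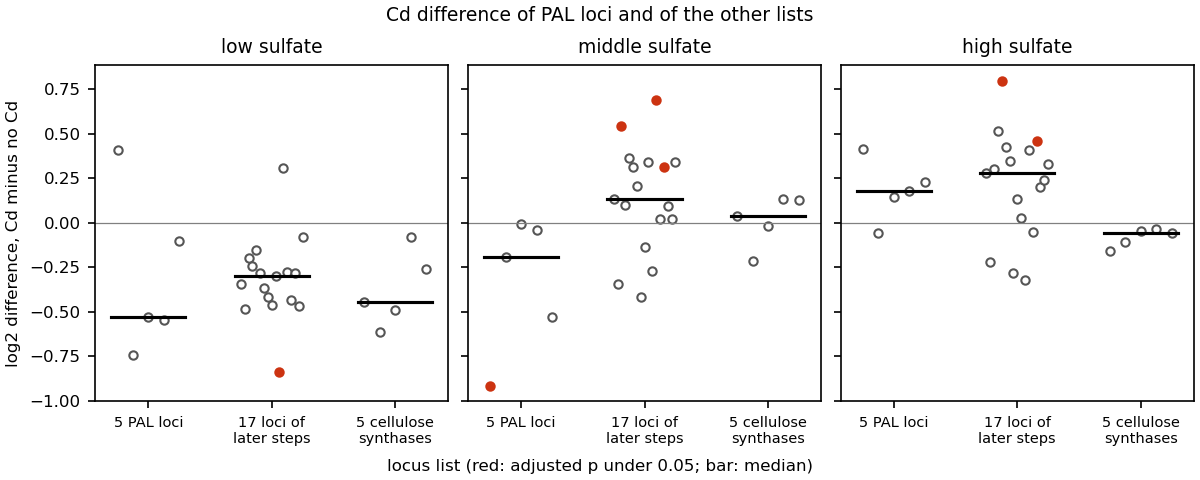
Log2 difference between the groups with and without Cd (y axis) at low, middle and high sulfate for the 5 PAL loci, the 17 loci of later monolignol steps and 5 cellulose synthase loci (x axis); red points had an adjusted p under 0.05 by limma and bars are medians. The median of the 17 later loci was −0.30, 0.13 and 0.28 in that order of sulfate.

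Secondary wall cellulose synthases, which build the walls of xylem cells, were followed as markers of vein tissue in the leaf samples. Their 5 identifiers were also taken from general knowledge, and chosen with earlier results of these data known. All 5 were expressed, and 0 were at 0 in every library. Their summed level was 75.1 ± 11.6 FPKM in +CdL (SD, n = 3; range 61.8 to 83.2), and its group means were 101 to 108 FPKM in the other 5 groups, whose libraries ranged from 75.4 to 128. Of the 5, 0 were called for Cd at any sulfate level, averaged over sulfate, or for low against middle or high sulfate (limma, adjusted p), where 0.717% to 28.1% of all loci were. All 5 were nonetheless lower in +CdL. The median log2 difference was −0.45 for Cd at low sulfate (−0.61 to −0.08), beside 0.04 at middle and −0.06 at high sulfate. With Cd it was −0.44 for low against middle (−0.60 to −0.35) and −0.32 for low against high sulfate (−0.69 to −0.21). For low against middle sulfate with Cd, leaving out −CdM2 gave 1 lower locus. For low against high sulfate with Cd, leaving out −CdM2 or +CdH3 gave 2 lower loci, and leaving out −CdM3, +CdL3 or +CdM1 gave 1, as did median ratio scaling and a mean of at least 5 FPKM. Those with the smallest p for Cd averaged over sulfate were Potri.004G059600, at −0.31 ± 0.14 (SE; limma, adjusted p = 0.101), Potri.002G257900, at −0.19 ± 0.12 (adjusted p = 0.253), Potri.006G181900, at −0.18 ± 0.12 (adjusted p = 0.261), and Potri.018G103900, at −0.06 ± 0.11 (adjusted p = 0.701). Without −CdM2 the first of these passed (−0.39; limma, adjusted p = 0.031).

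The neighbouring PAL loci of chromosome 10 moved with this marker sum from library to library. Here too the permutations ignored the groups, so shared group differences feed the p-values. Over the 18 libraries r was 0.864 for Potri.010G224100 (permutation p = 1e-05, adjusted p = 0.0001; rho = 0.829, permutation p = 8e-05, adjusted p = 0.0008) and 0.809 for Potri.010G224200 (permutation p = 3e-05, adjusted p = 0.0002; rho = 0.785, permutation p = 0.00029, adjusted p = 0.0019). The r was 0.80 and 0.713 without the 2 libraries farthest from the median, which were +CdL2 and +CdL3 for the former and +CdL1 and +CdL2 for the latter. For Potri.016G091100 r was 0.612 (permutation p = 0.0071, adjusted p = 0.02; rho = 0.585, permutation p = 0.012, adjusted p = 0.027), and 0.486 without +CdL2 and +CdM3. For Potri.006G126800 r was −0.017 (permutation adjusted p = 0.96; rho = 0.0691, adjusted p = 0.92) and for Potri.008G038200 it was 0.0491 (permutation adjusted p = 0.94; rho = −0.158, adjusted p = 0.82). For deviations from the group means, given as a description, r with the marker sum was 0.897 for Potri.010G224100, 0.753 for Potri.010G224200, 0.73 for Potri.016G091100, 0.444 for Potri.006G126800 and −0.414 for Potri.008G038200. The part of vein tissue in the PAL differences was not tested, and in whole leaf samples fewer cells of a type and less RNA per cell cannot be told apart.

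**Figure D5:**
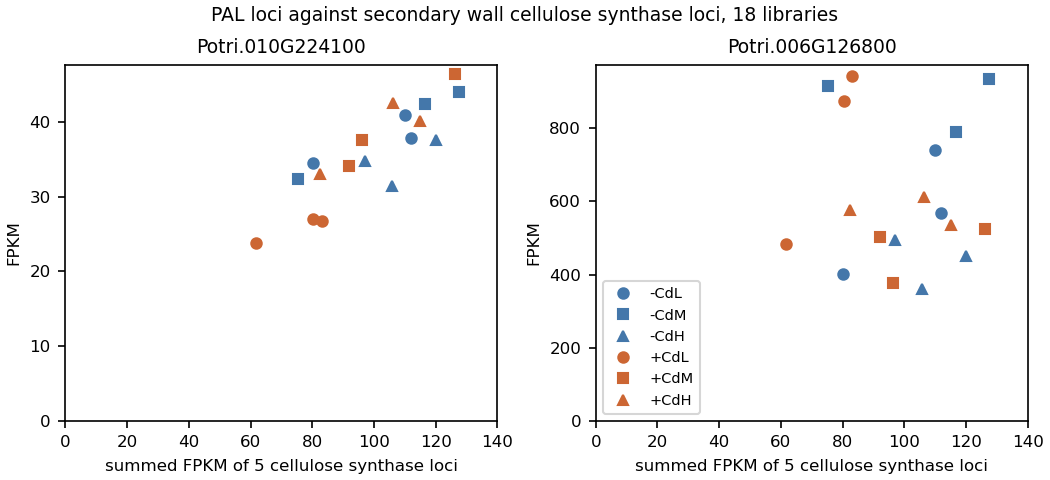
FPKM of Potri.010G224100 (left) and Potri.006G126800 (right) on the y axis against the summed FPKM of 5 secondary wall cellulose synthase loci (x axis) in 18 libraries; blue is without Cd, orange with Cd, and circles, squares and triangles are low, middle and high sulfate. Potri.010G224100 rises with the sum (r = 0.864), and r is −0.017 for Potri.006G126800. Both r were computed on log2 values, not on the FPKM shown.

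The summed level of the 17 later loci was related to the chromosome 10 pair as well, by the same permutations that ignored the groups. The r was 0.734 for Potri.010G224100 (permutation p = 0.00034, adjusted p = 0.0014; rho = 0.725, permutation p = 0.001, adjusted p = 0.0042) and 0.782 for Potri.010G224200 (permutation p = 6e-05, adjusted p = 0.0003; rho = 0.703, permutation p = 0.0015, adjusted p = 0.0052). Left without the 2 libraries farthest from the median, the values were 0.772 and 0.746, and for deviations from the group means they were 0.469 and 0.608. For the other 3 PAL loci r was −0.217 to 0.225 (permutation adjusted p = 0.59) and rho was −0.0671 to 0.263 (adjusted p of 0.58 to 0.92). The later loci summed to 1153 ± 172 FPKM in +CdL and to group means of 1343 to 1664 FPKM elsewhere (SD, n = 3).

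Among all loci tested, the loci whose log2 levels over the 18 libraries were most like a PAL locus were sought by Pearson's r, as a description. Nearest to Potri.006G126800 were Potri.003G052400 (r = 0.915), Potri.002G136400 (r = 0.866) and Potri.015G098100 (r = 0.802). Nearest to Potri.008G038200 were Potri.001G459200 (r = 0.869), Potri.001G083900 (r = 0.864) and Potri.007G129700 (r = 0.814), and nearest to Potri.016G091100 were Potri.012G057500 (r = 0.838), Potri.005G141600 (r = 0.82) and Potri.002G099200 (r = 0.792). For Potri.010G224100 the nearest was Potri.010G224200 (r = 0.96), followed by Potri.001G055100 (r = 0.937) and Potri.008G094700 (r = 0.913). For Potri.010G224200 it was Potri.010G224100, followed by Potri.016G111000 (r = 0.877) and Potri.005G061600 (r = 0.875). The choice depended on the measure of likeness. By Spearman's rho 3 of the 3 nearest loci were the same for Potri.010G224100, 2 for Potri.006G126800 and 1 for each other PAL locus. By deviations from the group means 2 were the same for Potri.010G224200, 1 each for Potri.006G126800 and Potri.016G091100, and 0 for Potri.008G038200 and Potri.010G224100.

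The degradome tables, which list transcript ends left by small RNA cuts in 1 pool of 9 RNAs at each Cd level, do not bear on the PAL loci. Each lists 5250 pairs of small RNA and transcript, and 0 of these pairs, with or without reads, name a PAL identifier, so whether PAL transcripts are cut was not tested.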

How the data were processed

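The mRNA of 18 leaf libraries was analysed. Reads were aligned with TopHat2 2.1.1, per the submitters' processing notes; the sources used here do not name the program that computed FPKM, the genome build or the annotation. The values deposited by the authors are FPKM, without counts, so the depth is unknown, and an exact 0 can be a failed estimate; no PAL value was 0. The deposited degradome read counts were searched for the PAL identifiers and for those of the other lists. The other lists gave 5 pairs in the pool without Cd and 8 in the pool with Cd, which are not described here. The small RNA tables were not used, since no small RNA was listed against a PAL transcript.

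From the FPKM, loci averaging 1 FPKM or more across libraries were kept (23166). Their log2(FPKM + 1) values entered limma 3.58.1 (R 4.3.3; trend and robust steps) as 6 groups of 3, leaving 12 residual degrees of freedom, and each comparison was a contrast of groups. A log2 difference on this scale understates the change of low loci. Tests were two-sided, with Benjamini-Hochberg adjustment within a contrast over all loci, and an adjusted p under 0.05 made a call. The fit was tested on simulated data. The alternatives were a pseudocount of 0.1, no filter, a mean of at least 5 FPKM, quantile and median ratio scaling, no trend or robust step, only the groups compared, a replicate block, and leaving out each library. Relations over libraries were computed on log2(FPKM + 1), with the FPKM of a list summed before the log. They used 100000 permutations of the libraries regardless of group, so differences between groups enter their p-values.

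The members and lists were chosen with earlier results of these data known. Every PAL locus is named, with the 3 loci most like each by Pearson's r, and up to 4 loci of each other list, those with the smallest p for Cd averaged over sulfate. No sequence was printed, as the sources used here hold none of these loci.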

Additional observations from a re-analysis of the deposited data

Results flagged for a closer look

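The Cd response of Potri.006G126800 differed between sulfate levels by the test of the difference itself, with a low minus middle value of 1.329 (log2; limma, adjusted p = 0.0343), and by the F test over the 3 sulfate levels (adjusted p = 0.0473), whose low minus middle value is the same 1.329. The first call ended when any one of 8 libraries was left out and with only the groups compared, the F test when any one of 16 libraries was left out and with no filter, and both under quantile normalization and with the replicate block. The Cd response of Potri.003G059200, one of the 17 loci of later steps, differed between low and high sulfate by −0.9547 (limma, adjusted p = 0.0415). It stood at 58.0 ± 5.39 FPKM without and 52.5 ± 9.93 FPKM with Cd at low sulfate, and at 55.6 ± 6.95 and 97.8 ± 15.5 FPKM at high sulfate (SD, n = 3). This call ended when any one of 13 libraries was left out, all but −CdM2, −CdM3, +CdL1, +CdM1 and +CdH3 (−1.029 to −0.8122; limma, adjusted p of 0.0515 to 0.108), and without a filter, under quantile normalization and with only the groups compared (−0.97 to −0.95; adjusted p of 0.0526 to 0.0751). The replicate block ended this call as well.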

How the results depend on the processing

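With no filter on low values the F test for Potri.006G126800 missed the threshold (1.329; limma, adjusted p = 0.0642), and with a mean of at least 5 FPKM the Cd difference of Potri.008G038200 at low sulfate passed it (−0.74; adjusted p = 0.0483). Quantile normalization ended 4 calls: Potri.006G126800 for Cd at middle sulfate (−0.70), for the low minus middle interaction (1.00) and for the F test (1.00; limma, adjusted p = 0.0982), and Potri.008G038200 for Cd averaged over sulfate (−0.23). It added low against middle sulfate without Cd for Potri.008G038200 (0.67), which also passed when only the groups compared were fitted (0.44; limma, adjusted p = 0.0363). It turned 8 uncalled differences: Potri.006G126800 for averaged Cd (0.03366), Potri.008G038200 for Cd at high sulfate (0.02535) and low against middle with Cd (0.01824), Potri.010G224100 for Cd at middle sulfate (0.0603), low against middle without Cd (0.05997) and high against middle with Cd (0.02102), Potri.010G224200 for Cd at middle sulfate (0.01958) and Potri.016G091100 for low against middle with Cd (0.02349). Median ratio scaling turned Potri.010G224100 for Cd at middle sulfate (0.009993). The replicate block ended the low minus middle call of Potri.006G126800 (1.329; limma, adjusted p = 0.0559), its F test (1.329; adjusted p = 0.0812) and the low minus high call of Potri.003G059200 (−0.9547; adjusted p = 0.0668). Fitting only the groups compared ended the low minus middle call of Potri.006G126800 (1.329; adjusted p = 0.0719). Same-numbered libraries correlated at −0.288 to 0.268 in their deviations from group means, 7 of 45 pairs over 0.1. Libraries with different numbers correlated at −0.3696 to 0.3035, 19 of 90 pairs over 0.1. Of 18 libraries, 6 correlated best with their own number. These values showed no pairing by number, but they cannot exclude one. The cause of these changes was not tested.

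Counts over all loci moved by over 1.5 times as follows. High against middle sulfate without Cd had 10 calls with a pseudocount of 0.1, 9 without trend and robust steps and 1 with only the groups compared. The high minus middle interaction had 1 with no filter. The low minus high interaction had 242 with the block and 214 with only the groups compared. Fits of only the groups compared gave 47, 3197 and 1282 calls for Cd at low, middle and high sulfate, 1675 for low against middle with Cd, and 519 and 2230 for low against high without and with Cd.

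Leaving out 1 library at a time gave these ranges. For Potri.006G126800 they were −1.008 to −0.7713 for Cd at middle sulfate, −0.1079 to 0.06968 averaged, 1.10 to 1.633 for the low minus middle interaction and the F test, −0.2298 to 0.3029 for low minus high, and 0.4849 to 0.968 and −0.8747 to −0.4361 for low against middle with and without Cd. For Potri.008G038200 they were −0.8556 to −0.5679 for Cd at low and −0.168 to 0.0553 at high sulfate, −0.006968 to 0.247 for the high minus middle interaction, −0.06067 to 0.1357 for high against middle without Cd and −0.2528 to 0.06419 for low against middle with Cd. For Potri.010G224100 they were −0.1437 to 0.08843 for Cd at middle sulfate, −0.1221 to 0.09562 for high against middle with Cd, and −0.6733 to −0.4556 and −0.1928 to 0.02506 for low against middle with and without Cd. For Potri.010G224200 they were −0.1984 to 0.06073, −0.06415 to 0.1706, −0.6576 to −0.4821 and −0.2092 to 0.04049 in the same order, and −0.7285 to −0.4938 for low against high with Cd. For Potri.016G091100 they were −0.3112 to 0.2508 for Cd at low sulfate, −0.5423 to 0.01966 for the low minus high interaction, −0.1515 to 0.5065 for high against middle with Cd, −0.4825 to 0.07941 and −0.1114 to 0.221 for low against high with and without Cd, and −0.4234 to 0.2346 for low against middle with Cd. Calls over all loci ranged over 60 to 217, 3205 to 5064 and 1833 to 3295 for Cd at low, middle and high sulfate, 1852 to 3613 and 2282 to 4398 for low against middle without and with Cd, 0 to 213 and 0 to 5 for high against middle, 219 to 1056 and 2969 to 5005 for low against high, 874 to 1591, 0 to 5 and 140 to 535 for the low minus middle, high minus middle and low minus high interactions, and 440 to 1015 for the F test.

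The unknown read depth allows no counting error for any FPKM value, and 3 libraries a group leave wide intervals for the PAL loci with a large residual SD.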
